A study of Mus musculus with 16 samples.

Results

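Gene expression in the lungs of newborn mice that breathed 85% oxygen was compared between pups labelled Fgf10+/- and wild-type pups. The comparison takes the 4 arrays titled as heterozygous in hyperoxia and the 4 arrays titled as wild type in hyperoxia, 8 of the 16 arrays of the study. All 8 pups were exposed from postnatal day 0 to day 3 in a chamber, and lungs were taken at day 3. The other 8 arrays hold pups of both genotypes at day 3 in normoxia, 4 of each, and serve here for the pooled spread and for the genotype difference without oxygen. Each array was hybridised with Cy3-labelled RNA of a whole lung homogenate, so that epithelium, mesenchyme, vessels, airways, blood cells and pleura are measured together. In such a bulk sample, fewer cells of a type and less RNA per cell cannot be told apart. The labels give no strain, no litter and no description of the Fgf10 allele, and they do not say whether the control pups were littermates.

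Fgf10 encodes a fibroblast growth factor that lung mesenchyme secretes. It binds the receptor isoform FGFR2b on epithelial cells, where it drives branching, keeps distal progenitors dividing and supports the surfactant-producing alveolar type 2 cells. Exposure of newborn rodents to high oxygen reduces cell division in the lung and is used as a model of bronchopulmonary dysplasia, the chronic lung disease of preterm infants.

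In hyperoxia, the arrays labelled Fgf10+/- showed higher levels of genes of mitosis and cytokinesis and of single genes such as Cdh13, Sod3 and Bgn, and lower levels of Kiss1 and of some genes of distal lung epithelium. Of 20166 named genes tested, 83 differed between the genotypes at an adjusted p under 0.05 (limma, Benjamini-Hochberg adjustment over all genes), which is 0.412% of those tested. Of these, 59 were higher in Fgf10+/- (0.293%) and 24 were lower (0.119%). In all 83, the 4 arrays of one genotype lay entirely above the 4 of the other, an arrangement found without regard to the test in 632 genes on the higher side (3.13%) and 575 on the lower (2.85%). The difference reached 2-fold in 29 genes higher in Fgf10+/- and in 1 lower gene.

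The number of calls depended on single arrays and on the normoxia arrays that share in the estimate of the spread. Leaving out one of the 8 hyperoxia arrays at a time gave 13 to 80 calls: without wild-type replicates 1 to 4 they numbered 32, 46, 20 and 29, and without Fgf10+/- replicates 1 to 4 they numbered 80, 21, 30 and 13. A fit to the 8 hyperoxia arrays alone made 0 calls in limma, with 1825 genes at an unadjusted p under 0.05 against 1818 in the fit to all arrays. By Eif2s3y and Xist, 2 of 4 wild-type and 1 of 4 Fgf10+/- arrays in hyperoxia were from males, and a covariate for sex left 40 calls. Of the 83 genes, 11 passed in each of the 8 fits that leave out an array: Ckap2, Prc1, Ccnb2, Cdkn3, Cdh13 and Sod3 on the higher side, and Kiss1, Lgi3, Rbpjl, 4833420G17Rik and AF067061 on the lower. Another 12 passed in none of the 8, and no called gene changed sign in any of them. Nothing in the labels says that the 4 replicates of a group were pups of separate litters, and the p-values here cover no other spread than that among the arrays. Arrays of a genotype correlated with each other at 0.976 to 0.983 over all tested genes, and arrays of different genotypes at 0.975 to 0.984.

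**Figure D1:**
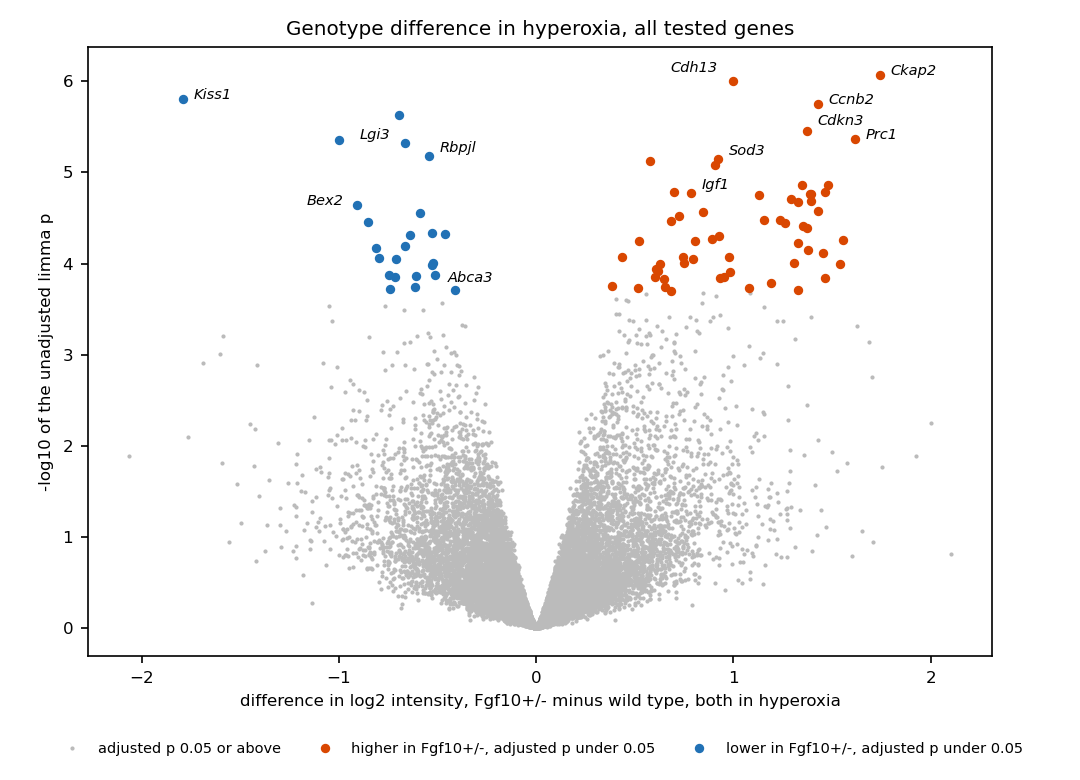
Each point is one of 20166 tested genes in the 8 hyperoxia arrays, with the difference in log2 intensity between Fgf10+/- and wild type on the horizontal axis and -log10 of the unadjusted limma p on the vertical axis. The 59 genes called higher (orange) reach 1.74 in Ckap2, and the 24 called lower (blue) reach -1.79 in Kiss1.

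The targeted gene itself was first read in every array. Of the array's features, 10 name Fgf10, and their mean log2 intensity was 7.28, 7.41, 7.62 and 7.66 in the 4 wild-type arrays and 6.96, 7.47, 7.33 and 7.37 in the Fgf10+/- arrays. The groups overlapped, with means of 7.49 ± 0.18 and 7.28 ± 0.22 (SD, n = 4 each). The difference of -0.21 had an exact two-sided permutation p of 0.229, where 4 against 4 arrays allow no p below 0.0286, although all 10 features were lower in Fgf10+/-, by values between -0.40 and -0.06. The feature that entered the test over all genes differed by -0.21 (95% confidence interval -0.65 to 0.22, limma adjusted p = 0.835). In normoxia the same feature was at 0.48 (SE 0.20, adjusted p = 0.334), above wild type. The array therefore did not measure a loss of Fgf10 transcript beyond the spread of the arrays. The sources used here do not say where the probes lie relative to the altered part of the allele, so this is no firm check of the labels, and "Fgf10+/-" below means the arrays so labelled.

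Genes that act in mitosis made up most of the largest differences. Of the 15 largest called differences on the higher side, all belong to cell division by their known roles. They are Ckap2, Prc1, Pimreg, Cenpe, Kif20a, Aspm, Kif18b, Top2a, Ccnb2, Kif22, Tpx2, Birc5, Cenpa, Spc25 and Cdkn3, with differences from 1.74 down to 1.38 on the log2 scale. Of a list of 26 mitosis genes, 24 were measured. Of these, 14 rose in Fgf10+/- and 0 fell, all 24 lay above 0, and in 18 the arrays of the genotypes did not overlap. Over all genes tested, 0.293% were called higher and 3.13% had arrays that did not overlap on that side. The median difference of the 24 was 1.30, against -0.0052 over all genes tested.

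Of these genes, Ckap2, Prc1, Ccnb2 and Cdkn3 passed in every fit that left out an array, and their promoters are shown for that reason. Genes of late cell cycle phases are known to carry a cell cycle homology region (CHR, letters TTTGAA), bound by the DREAM and MuvB complexes, and CCAAT boxes, bound by NF-Y. The windows run from 250 bases before to 50 bases after the transcription start (RefSeq, GRCm38.p6), written 5′ to 3′ on the strand of the gene, with matches to either motif on either strand in capitals. The windows lie at chr8:22185770-22186069 on the minus strand for Ckap2, at chr7:80294201-80294500 on the plus strand for Prc1, at chr9:70421505-70421804 on the minus strand for Ccnb2, and at chr14:46760291-46760590 on the plus strand for Cdkn3. For Prc1 the table holds 2 windows, and the first is printed.
Ckap2: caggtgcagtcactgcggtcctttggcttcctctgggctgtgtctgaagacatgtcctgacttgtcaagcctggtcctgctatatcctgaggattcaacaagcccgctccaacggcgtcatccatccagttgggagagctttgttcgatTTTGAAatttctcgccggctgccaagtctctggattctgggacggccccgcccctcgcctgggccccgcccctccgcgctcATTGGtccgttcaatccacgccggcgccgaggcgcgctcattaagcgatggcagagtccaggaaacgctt
Prc1: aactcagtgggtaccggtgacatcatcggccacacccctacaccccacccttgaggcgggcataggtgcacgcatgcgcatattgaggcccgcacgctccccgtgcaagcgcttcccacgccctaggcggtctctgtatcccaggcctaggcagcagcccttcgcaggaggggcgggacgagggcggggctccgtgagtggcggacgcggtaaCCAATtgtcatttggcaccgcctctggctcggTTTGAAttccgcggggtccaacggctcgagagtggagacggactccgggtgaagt
Ccnb2: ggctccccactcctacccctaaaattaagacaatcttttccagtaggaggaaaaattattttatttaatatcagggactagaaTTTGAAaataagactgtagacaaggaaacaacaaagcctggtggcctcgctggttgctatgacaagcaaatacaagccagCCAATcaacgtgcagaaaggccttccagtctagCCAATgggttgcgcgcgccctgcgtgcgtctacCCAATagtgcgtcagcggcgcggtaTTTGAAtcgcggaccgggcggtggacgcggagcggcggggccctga
Cdkn3: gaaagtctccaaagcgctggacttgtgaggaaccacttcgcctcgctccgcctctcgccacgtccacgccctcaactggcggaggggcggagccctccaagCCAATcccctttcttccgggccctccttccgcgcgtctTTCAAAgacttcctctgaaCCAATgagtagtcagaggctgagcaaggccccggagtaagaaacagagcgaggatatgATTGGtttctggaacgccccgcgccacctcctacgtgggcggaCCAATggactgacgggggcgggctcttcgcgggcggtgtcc

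Each of the 4 windows holds both motifs, with 1 CHR and 1 CCAAT box in Ckap2 and Prc1, 2 and 3 in Ccnb2, and 1 and 4 in Cdkn3. The table gave a window for 44 of the 59 genes called higher, and 22 of these 44 held both motifs, against 6.27% of the 15959 tested genes with a window. A CHR was in 24 of the 44 (54.5%, against 15.3% of tested genes) and a CCAAT box in 30 (68.2%, against 38.7%). Among the 20 genes called lower that have a window, 0 held both. On the mitosis list, 17 of 22 windows held both (77.3%), and on a list of DNA replication genes 2 of 16 (12.5%). The 2 motifs do not overlap each other in their letters, and a match describes the sequence only.

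Ckap2, a spindle-associated protein of mitosis, measured 5.65, 4.78, 4.96 and 5.43 in wild type and 6.38, 7.24, 7.05 and 7.11 in Fgf10+/-. All 4 Fgf10+/- arrays lay above all wild-type arrays, by 1.74 on average (SE 0.21, 3.34-fold, adjusted p = 0.00904). Prc1, which bundles the microtubules of the central spindle, was at 7.72, 8.02, 7.18 and 8.03 in wild type and at 8.81, 9.29, 9.50 and 9.82 in Fgf10+/-. The difference was 1.62 (SE 0.22, 3.07-fold, adjusted p = 0.0108), and the lowest Fgf10+/- array, replicate 1, stood above the highest wild-type array. Ccnb2, the cyclin B2 that activates Cdk1 at entry into mitosis, was at 8.29, 8.30, 7.88 and 8.10 against 8.999, 9.62, 9.72 and 9.95. It rose by 1.43 (SE 0.18, 2.70-fold, adjusted p = 0.00904). Cdkn3, a phosphatase that acts on cyclin-dependent kinases, was at 5.23, 5.56, 5.11 and 5.54 against 6.09, 6.91, 6.84 and 7.10, a difference of 1.38 (SE 0.19, adjusted p = 0.0108). In all 4 genes replicate 1 was the lowest of the Fgf10+/- arrays.

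The same array order ran through the list. The mean level of the 24 mitosis genes was 6.72, 6.72, 6.24 and 6.77 in the wild-type arrays and 7.19, 7.91, 7.81 and 8.08 in the Fgf10+/- arrays. Replicate 1 of Fgf10+/- stood nearest to wild type, and replicate 3 of wild type was the lowest. In normoxia the list mean was higher in every array of both genotypes, 8.17 to 8.77 in wild type and 9.18 to 9.29 in Fgf10+/-, and the genotypes did not overlap there either. Without single arrays the number of called members ran from 2 (without Fgf10+/- replicate 2, or without replicate 4) to 18 (without Fgf10+/- replicate 1). It was 9 with a covariate for sex and 0 in the fit to the 8 hyperoxia arrays alone, and the median of the list stayed between 1.13 and 1.52 when an array was left out.

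The kinesins and spindle proteins followed with similar values. Anln, an actin-binding protein of the cleavage furrow, differed by 1.35 (adjusted p = 0.0169). Kif20a, a kinesin of cytokinesis, differed by 1.48 (adjusted p = 0.0169). Top2a, the topoisomerase that untangles chromosomes, was at 6.18, 6.38, 4.97 and 6.27 against 6.84, 7.67, 7.51 and 7.59, a difference of 1.45 (adjusted p = 0.0318) in which wild-type replicate 3 was far below its group. Mki67, the Ki-67 marker of cycling cells, was at 10.001, 9.57, 9.21 and 9.83 against 10.04, 10.86, 10.88 and 11.15. Its difference of 1.08 (SE 0.22, adjusted p = 0.0472) separated the groups by a narrow margin, between wild-type replicate 1 and Fgf10+/- replicate 1, and the call was lost in 7 of the 8 fits that leave out an array. For Tpx2, an activator of Aurora A, the tested feature differed by 1.40, while a further feature of the gene gave 0.34 without a call and the mean of features 0.87 (adjusted p = 0.143).

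Genes of DNA replication differed less. On a list of 20, none passed, 20 lay above 0, and the median difference was 0.20, with all genotype groups overlapping in every member. The smallest p-values were those of Tk1 (thymidine kinase, 0.73, adjusted p = 0.24), Rrm1 (0.46, adjusted p = 0.309) and Rrm2 (0.67, adjusted p = 0.395), the subunits of ribonucleotide reductase, and Pole (DNA polymerase epsilon, 0.65, adjusted p = 0.408, and 0.30 with the mean of its features). Rrm2 measured 8.74, 8.13, 7.90 and 8.75 in wild type and 8.28, 9.47, 9.13 and 9.32 in Fgf10+/-, so that 3 of 4 Fgf10+/- arrays were above all wild-type arrays and replicate 1 was within their range. The difference between the mitosis and the replication list was not tested.

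Levels of p53 target genes were read beside these, because p53 halts division after DNA damage. Of 21 measured, none passed and 16 lay above 0 (median 0.15). The mean level of the list ran from 8.64 to 8.77 in wild type and from 8.84 to 8.88 in Fgf10+/-, without overlap. In 4 members the Fgf10+/- arrays lay entirely above wild type (3.13% of all genes tested), and in 1 entirely below (2.85%). The smallest p-values belonged to Phlda3 (0.64, adjusted p = 0.0905), an inhibitor of Akt, to Zmat3 (0.45, adjusted p = 0.12), to Cdkn1a (0.45, adjusted p = 0.214), the p21 inhibitor of cyclin-dependent kinases, and to Pmaip1 (0.58, adjusted p = 0.307), which encodes Noxa. Cdkn1a was at 10.09, 9.97, 9.84 and 10.09 in wild type and at 10.24, 10.55, 10.53 and 10.48 in Fgf10+/-. The arrays of the genotypes did not overlap in Cdkn1a, though the test over all genes did not call it. With features averaged per gene in place of the brightest, Cdkn1a was called (0.50, adjusted p = 0.0286).

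**Figure D2:**
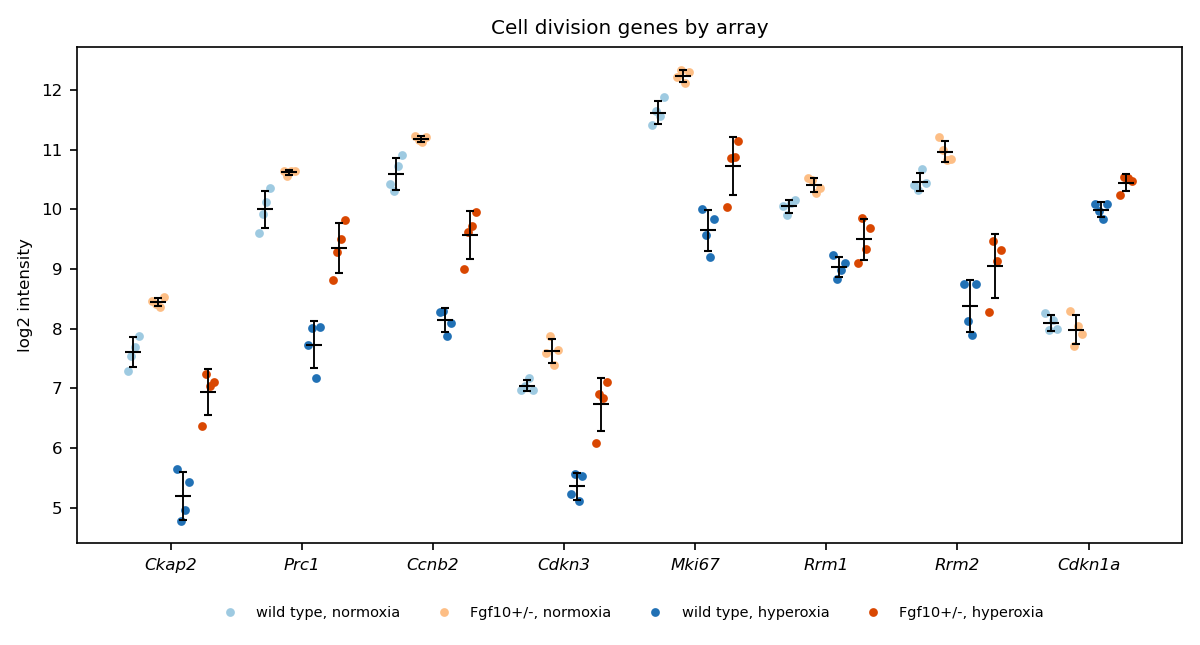
Log2 intensity of 8 genes (horizontal axis) in the 16 arrays, 4 for each combination of genotype and oxygen, with the black bar at the group mean and whiskers of 1 SD. Ckap2, Prc1, Ccnb2, Cdkn3 and Mki67 were called between the genotypes in hyperoxia, where their Fgf10+/- arrays all lie above the wild-type arrays, while Rrm1, Rrm2 and Cdkn1a were not called.

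On the lower side, 24 genes passed, and several are known from distal lung epithelium. Of a list of 20 alveolar type 2 cell markers, all 20 measured, 4 fell in Fgf10+/- (Slc34a2, Lamp3, Abca3 and Etv5) and 0 rose. In 10 the Fgf10+/- arrays lay entirely below wild type, 18 were below 0, and the median difference was -0.33. Over all genes tested, 0.119% were called lower and 2.85% had Fgf10+/- arrays entirely below wild type. The mean level of the list ran from 11.73 to 11.93 in wild type and from 11.47 to 11.64 in Fgf10+/-, without overlap. None of the 4 calls held in all fits without 1 array, which left 0 to 2 calls on the list. With a covariate for sex 0 of the 4 passed, at adjusted p of 0.05 to 0.0913, and the differences were nearly the same.

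Abca3, the lipid transporter of lamellar bodies, in which surfactant is stored, measured 13.44, 13.55, 13.43 and 13.47 in wild type and 12.80, 12.93, 12.93 and 13.18 in Fgf10+/-. The difference was -0.51 (SE 0.10, adjusted p = 0.0405). Lamp3, a membrane protein of lamellar bodies, was at 13.40, 13.38, 13.40 and 13.06 against 12.68, 12.99, 12.74 and 12.71, with wild-type replicate 4 apart from its group. It fell by 0.53 (SE 0.10, adjusted p = 0.034). Slc34a2, the phosphate transporter that takes up phosphate from the alveolar lumen, was at 10.91, 10.44, 10.96 and 10.72 against 10.004, 10.12, 9.99 and 10.07. Its difference of -0.71 (SE 0.13, adjusted p = 0.0327) was the largest of the list.

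The surfactant proteins themselves did not pass. Sftpb, which encodes surfactant protein B, was at 14.65, 14.59, 14.56 and 14.66 in wild type and 14.37, 14.39, 14.31 and 14.81 in Fgf10+/-. In Sftpb, 3 Fgf10+/- arrays were below wild type and replicate 4 above it, so that the difference was -0.14 (SE 0.11, adjusted p = 0.767). Sftpc, the defining transcript of type 2 cells, was at 15.97 to 15.99 in all 8 arrays, at the top of the range of a 16-bit scanner, where a difference cannot be read. Its level also showed the tissue to be lung in every array.

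Other genes of the lower side included transcription factors and secreted proteins, of which Rbpjl and Sfta3-ps were chosen after their values were seen. Lgi3, a secreted protein, was at 10.92, 10.96, 11.05 and 11.10 in wild type and at 10.22, 10.40, 10.36 and 10.39 in Fgf10+/- (-0.67, SE 0.09, adjusted p = 0.0108). Rbpjl, a transcription factor related to the Notch effector RBPJ, was at 11.68, 11.54, 11.58 and 11.60 against 11.08, 11.10, 11.03 and 11.02 (-0.54, SE 0.08, adjusted p = 0.0126). Both groups were tight in each gene, with gaps between the genotypes wider than the range within either. Sfta3-ps, a surfactant-associated transcript, differed by -0.53 (adjusted p = 0.0249). By the rule of the 15 largest falls came Elf5 (-0.66, adjusted p = 0.0282), a transcription factor of the distal tips of the embryonic lung, and Tfcp2l1 (-0.81, adjusted p = 0.0293), a grainyhead-family transcription factor of epithelia. Pla2g1b, a secreted phospholipase, differed by -0.64 (adjusted p = 0.0249). With features averaged per gene, Tfcp2l1 (-0.78, adjusted p = 0.132) and Pla2g1b (-0.57, adjusted p = 0.326) were not called. Spink7, a protease inhibitor (-0.75), and Krt79, a keratin (-0.61), each had an adjusted p of 0.0405.

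Kiss1 showed the widest called gap on the lower side. This precursor of the kisspeptins, known from the control of puberty and as a suppressor of metastasis, was at 7.51, 7.59, 7.62 and 7.65 in wild type and at 5.96, 5.89, 6.10 and 5.26 in Fgf10+/-. It fell by 1.79 (SE 0.23, 3.46-fold, adjusted p = 0.00904), and a further feature of the gene fell by 1.10 and was also called. The rest of the 15 largest falls were Bex2 (-0.91) and Bex4 (-0.61), adaptor proteins encoded on the X chromosome, Ak4 (-0.86), a mitochondrial adenylate kinase, Gpt (-0.79), alanine aminotransferase, Fam178b (-0.72), Ppp1r9a (-0.59), a scaffold of protein phosphatase 1, and Myh7. With features averaged per gene, Ak4 (-0.85, adjusted p = 0.537) and Fam178b (-0.57, adjusted p = 0.317) were not called. With the covariate for sex, Bex2 kept its call (adjusted p = 0.0412) and Bex4 did not (adjusted p = 0.0884).

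Myh7, the slow myosin heavy chain of heart and slow muscle, was at 11.17, 11.50, 11.69 and 11.19 in wild type and at 10.49, 10.66, 10.77 and 10.66 in Fgf10+/- (-0.74, adjusted p = 0.0479), a call that none of the 8 fits without an array kept. It was the single member of a list of 12 cardiac muscle markers to pass, where 0.119% of all genes tested were called lower. The mean level of that list was 8.77 to 8.86 in wild type and 8.40, 8.63, 8.73 and 9.33 in Fgf10+/- replicates 1 to 4, so the groups overlapped. Mouse pulmonary veins contain cardiac muscle, and the part of such tissue in the result was not tested.

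**Figure D3:**
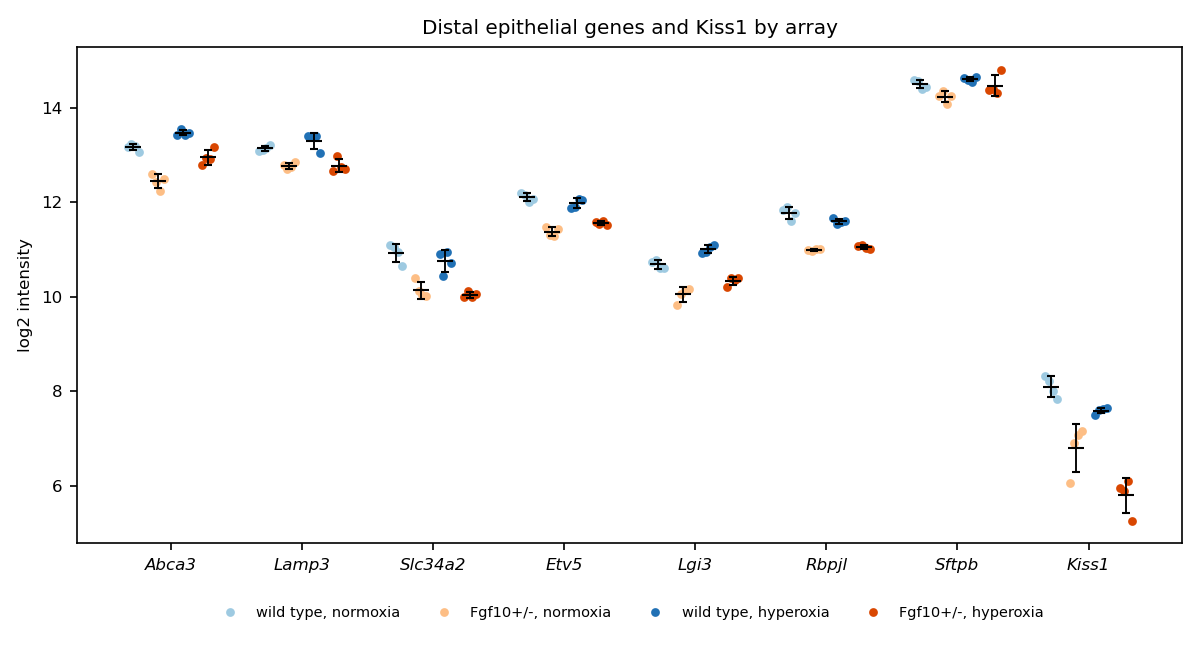
Log2 intensity of 8 genes (horizontal axis) in the 16 arrays, 4 for each combination of genotype and oxygen, with the black bar at the group mean and whiskers of 1 SD. In Abca3, Lamp3, Slc34a2, Etv5, Lgi3, Rbpjl and Kiss1 the Fgf10+/- arrays lie below the wild-type arrays at both oxygen levels, and in Sftpb replicate 4 of Fgf10+/- in hyperoxia lies above them.

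Among other epithelial markers no gene passed in hyperoxia. For alveolar type 1 cells, the flat cells of gas exchange, 10 of 14 measured members lay above 0 and the median was 0.07. Ager, their receptor for advanced glycation end products, was at 11.81, 11.72, 12.01 and 11.98 against 12.02, 12.005, 11.80 and 12.26 (0.15, adjusted p = 0.757), with overlapping groups. Cav1, caveolin (0.39, adjusted p = 0.277), Aqp5, a water channel (-0.31, adjusted p = 0.585), and Igfbp2 (0.44, adjusted p = 0.721) went in both directions. For transitional epithelium the median was 0.06 over 14 members. All 16 measured ciliated cell markers were below 0 (median -0.36), among them Dnah5, a dynein of the ciliary axoneme, at -0.47 (adjusted p = 0.454). Of 11 club cell markers 9 were below 0, with a median of -0.18.

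The FGF pathway was read from its ligands down to its targets. None of 14 ligands, receptors and binding proteins passed, and their median difference was 0.01. Fgf9, a ligand made by pleura and epithelium, had the smallest p of the list. It was at 5.80, 5.86, 5.99 and 5.84 in wild type and at 6.49, 7.24, 6.66 and 7.48 in Fgf10+/-, with no overlap between the genotypes (1.09, SE 0.32, adjusted p = 0.24). Fgf7, the closest relative of Fgf10, was at -0.09 (adjusted p = 0.95), and its sign turned without Fgf10+/- replicate 2 (0.006). Fgf18, a mesenchymal ligand of alveolar formation, was at 0.21 (adjusted p = 0.651), the receptor Fgfr1 at 0.33 (adjusted p = 0.473, and 0.14 with the mean of its features) and the ligand carrier Fgfbp3 at -0.38 (adjusted p = 0.721).

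Fgfr2, the receptor gene whose b isoform binds FGF10, was at 7.54, 7.36, 7.51 and 7.53 in wild type and at 7.34, 7.10, 7.24 and 7.45 in Fgf10+/-. The groups overlapped and the difference was -0.20 (SE 0.15, adjusted p = 0.75), and with the mean of its features it was -0.37 (adjusted p = 0.247). The array does not tell the b and c isoforms apart here.

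Of 18 genes that respond to FGF signals or dampen them, 1 fell and 0 rose, against 0.119% and 0.293% of all genes tested. The median difference of the list was -0.06. The member that fell was Etv5, an ETS transcription factor induced by FGF signalling and needed by type 2 cells, which is on the type 2 list as well. It measured 11.89, 11.90, 12.08 and 12.06 in wild type and 11.60, 11.54, 11.61 and 11.52 in Fgf10+/- (-0.41, SE 0.08, adjusted p = 0.0479). The gap was small but clean in the arrays, and its call was lost in all 8 fits that leave out an array. Bmp4 (0.45, adjusted p = 0.557), a growth factor of the distal tips, Lef1 (-0.42, adjusted p = 0.576), a factor of Wnt signalling, and Spred3 (-0.70, adjusted p = 0.65), an inhibitor of the Ras pathway, did not pass. Spry2, a feedback inhibitor of FGF receptors, was at -0.24 (adjusted p = 0.862).

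The lists of matrix and mesenchyme held 1 call in all. Of 27 genes of elastic fibres, collagens and TGF-beta, 1 rose and 0 fell, against 0.293% and 0.119% of all genes tested. Of the 27, 25 lay above 0, and the median difference was 0.26. The riser was Loxl2, a lysyl oxidase that crosslinks collagen and elastin, at 10.91, 10.61, 10.79 and 10.60 in wild type and 11.51, 11.93, 11.22 and 11.63 in Fgf10+/- (0.85, SE 0.14, adjusted p = 0.0199), and its call was lost in 5 of the 8 fits that leave out an array. Col4a1 (0.38, adjusted p = 0.234), a collagen of basement membranes, Mfap5 (0.57, adjusted p = 0.311) and Fbln2 (0.45, adjusted p = 0.336), proteins of microfibrils and elastic fibres, were next by p-value. Of this list, 7 members had arrays that did not overlap on the higher side, as 3.13% of all genes tested had. Among mesenchymal cell markers, 0 of 15 of myofibroblast and smooth muscle (median 0.21), 0 of 8 of pericytes (median 0.12) and 0 of 13 of lipofibroblasts (median -0.06) passed in either direction.

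Further genes among the 59 that are known from matrix or mesenchyme were picked out after their values were seen, and they describe no theme beyond themselves. Bgn, the small proteoglycan biglycan, was at 7.68, 7.96, 7.96 and 8.44 in wild type and at 9.06, 9.28, 8.67 and 9.55 in Fgf10+/- (1.13, 2.19-fold, adjusted p = 0.0169). Igf1, a mesenchymal growth factor, was at 9.03, 8.62, 8.75 and 9.03 against 9.90, 9.50, 9.47 and 9.70 (0.78, SE 0.12, adjusted p = 0.0169). All 10 features that name Igf1 were higher, by 0.33 to 0.87, and 4 of them passed when features were tested singly. The features of a gene read the same RNA on the same arrays. Mmp2, a gelatinase, differed by 0.70 (adjusted p = 0.0169). Others called were Adamtsl2, a fibrillin-binding protein (0.98), Srpx2 (0.72), the Wnt-induced matricellular protein Ccn4 (0.62) and Scx, the transcription factor scleraxis (0.52), with adjusted p from 0.021 to 0.0472. With features averaged per gene, Srpx2 was at 0.52 (adjusted p = 0.249) and Ccn4 at 0.57 (adjusted p = 0.0748), neither called.

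Outside mitosis, Cdh13 and Sod3 were the higher genes that passed in all 8 fits that leave out an array. Cdh13, a cadherin anchored by lipid that binds adiponectin, was at 8.15, 7.98, 8.40 and 8.25 in wild type and at 9.21, 8.99, 9.30 and 9.27 in Fgf10+/- (1.00, SE 0.12, adjusted p = 0.00904). Sod3, the extracellular superoxide dismutase, was at 9.76, 9.56, 9.58 and 9.40 against 10.66, 10.37, 10.54 and 10.42 (0.92, SE 0.13, 1.90-fold, adjusted p = 0.0126). In both genes the gap between the genotypes was wider than the range within either. Serping1, the C1 inhibitor of complement, was at 12.36 to 12.42 against 12.87 to 13.06 (0.58, SE 0.08, adjusted p = 0.0126). Hsd11b1, the enzyme that regenerates active glucocorticoid, was at 11.17, 11.50, 11.71 and 11.26 against 12.26, 12.24, 12.14 and 11.999 (0.75, adjusted p = 0.034). All 10 of its features passed singly, at 0.70 to 0.79, but they read the same RNA on the same arrays. Cdh13, Serping1 and Hsd11b1 were named after their values were seen.

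Markers of the pleural mesothelium were high in some of the Fgf10+/- arrays. The mean level of 7 mesothelium markers was 8.27, 7.89, 8.62 and 8.32 in wild type and 8.13, 8.94, 8.38 and 9.70 in Fgf10+/-, high in replicates 2 and 4. None of the 7 passed (median 0.45). Msln, mesothelin, was at 12.50 to 13.30 against 13.57, 13.42, 13.23 and 14.30 (0.69, adjusted p = 0.442), and Wt1 at 4.11 to 5.40 against 4.80, 6.23, 5.06 and 7.62 (0.91, adjusted p = 0.722). Within Fgf10+/-, Loxl2 and Bgn were also highest in replicates 2 and 4, whereas Sod3 was highest in replicate 1, the lowest of its group in the mesothelium list. The Fgf10+/- means of the mitosis list (7.19, 7.91, 7.81 and 8.08) had the same array order as the mesothelium list. So had those of the elastic fibre and collagen list (11.06, 11.33, 11.32 and 11.42) and the values of Fgf9. Within wild type, the mesothelium list was highest in replicate 3, where the mitosis list was lowest. The part of pleural tissue in these differences was not tested.

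On the lists of defence against oxygen radicals, 1 gene was called. Of 19 antioxidant enzymes, 1 rose (Sod3) and 0 fell, against 0.293% and 0.119% of all genes tested, with a median of 0.03. Cat, catalase, was at -0.57 (adjusted p = 0.343) and Gpx3, the plasma glutathione peroxidase, at 0.61 (adjusted p = 0.499). Of 24 targets of NRF2, the transcription factor that turns on detoxifying enzymes, none passed and the median was -0.06. The smallest p of that list was that of Tkt, transketolase, at 11.61, 11.93, 11.87 and 12.08 in wild type and 11.37, 11.04, 11.74 and 11.38 in Fgf10+/- (-0.49, adjusted p = 0.192), with overlapping groups.

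Vascular, immune and metabolic lists held at most 1 call each, where 0.293% of all genes tested were called higher and 0.119% lower. Of 7 lymphatic endothelium markers, 1 rose, Mmrn1 (multimerin), at 8.78, 8.97, 8.80 and 8.93 in wild type and 9.80, 9.51, 9.55 and 9.24 in Fgf10+/- (0.66, SE 0.13, adjusted p = 0.0471), while Prox1, the factor that specifies lymphatic fate, was at 0.63 (adjusted p = 0.461). The list mean was 7.64 to 7.78 in wild type and 7.73 to 8.10 in Fgf10+/-. None of 19 blood endothelium markers passed (median 0.04). Of 16 genes of fatty acid oxidation, 1 fell, the acyl-CoA thioesterase Acot1 (-0.52, adjusted p = 0.034). Of 22 acute phase and inflammation genes none passed and the median was 0.27, and the list mean was 8.27 in Fgf10+/- replicate 1 against 6.58 to 6.76 in the rest of its group. C1qb, a complement gene of macrophages, was at 0.79 (adjusted p = 0.368).

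**Figure D4:**
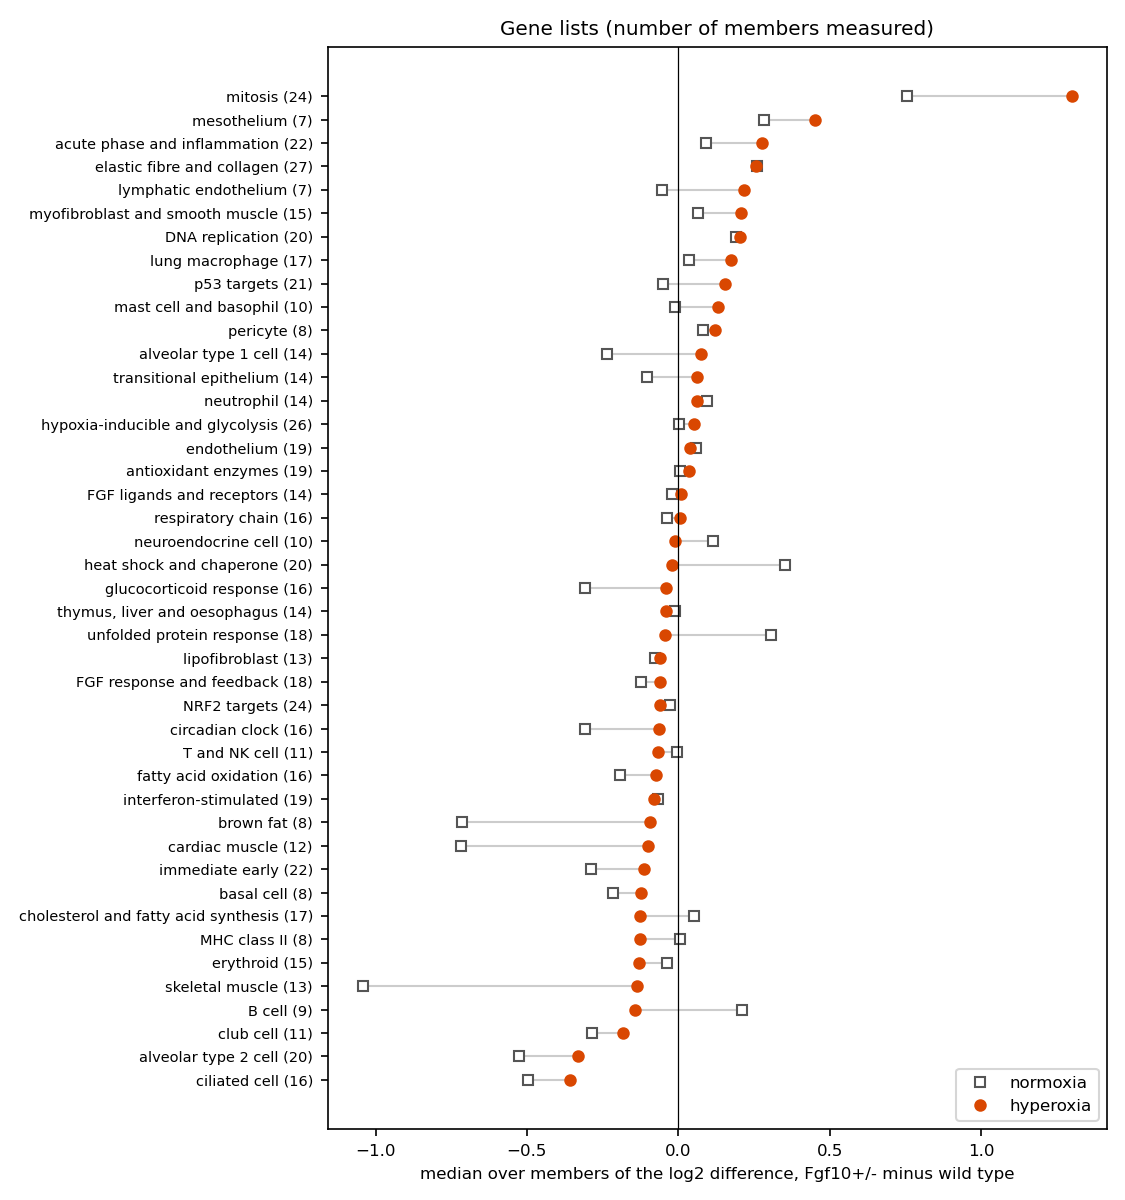
Median log2 difference between Fgf10+/- and wild type (horizontal axis) for each gene list with at least 5 measured members (vertical axis, number measured in parentheses), in hyperoxia (filled circles) and in normoxia (open squares). The mitosis list stands highest at both oxygen levels, at 1.30 and 0.75, and the ciliated and type 2 lists are among the lowest in hyperoxia, at -0.36 and -0.33.

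The same genotype comparison in normoxia, made on the other 8 arrays, gave 23 genes higher (0.114%) and 122 lower (0.605%) in Fgf10+/-. The 2 comparisons share no arrays, but they share the spread estimated in 1 fit. Called at both oxygen levels were 19 genes, 22.9% of those called in hyperoxia and 13.1% of those called in normoxia. Of these, 3 were higher in both, 16 were lower in both, and 0 went opposite ways. Of the 59 genes higher in hyperoxia, 55 also lay above 0 in normoxia, with a median of 1.00 in hyperoxia and 0.57 in normoxia. Of the 24 lower genes, 22 lay below 0 in normoxia, with medians of -0.66 and -0.70.

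The groups of genes divided between the oxygen levels as follows. For mitosis, 14 members rose in hyperoxia and 3 in normoxia, with medians of 1.30 and 0.75. Ckap2 was at 1.74 in hyperoxia and at 0.84 in normoxia (adjusted p = 0.0883 there), and Prc1 at 1.62 and 0.62 (adjusted p = 0.237). For type 2 markers, 4 fell in hyperoxia and 7 in normoxia, with medians of -0.33 and -0.53. Abca3 was at -0.51 and at -0.72 (adjusted p = 0.00481), and Etv5 at -0.41 and at -0.73 (adjusted p = 0.00124). Igf1 was at 0.78 and 0.79 (adjusted p = 0.00954), Lgi3 at -0.67 and -0.64 (adjusted p = 0.00729), and Kiss1 at -1.79 and -1.30 (adjusted p = 0.0179).

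A test of the difference between these differences, the interaction of genotype and oxygen, called 0 genes in limma, with 1334 at an unadjusted p under 0.05 and a lowest adjusted p of 0.466. Without wild-type hyperoxia replicate 2 it called 1, Tfr2. For Ckap2 the interaction was 0.90 (95% interval 0.26 to 1.54, adjusted p = 0.655), and for Abca3 0.21 (-0.09 to 0.51, adjusted p = 0.838), so that no gene named here was shown to respond to genotype differently at the 2 oxygen levels. By unadjusted p the first 8 were Macrod1, Enho, Tfr2, Rfesd, Spink7, Ern2, Il2rb and Krt79, each at an adjusted p of 0.466 to 0.47. Tfr2, transferrin receptor 2, was at 4.33, 5.16, 4.201 and 4.23 in wild type and 5.82, 5.65, 5.62 and 5.88 in Fgf10+/- in hyperoxia (1.26, adjusted p = 0.0214), and at -0.36 in normoxia. Macrod1, a hydrolase of ADP-ribose, was at -0.10 in hyperoxia and -0.83 in normoxia, and Enho, the precursor of adropin, at 0.18 (0.29 with the mean of its features) and -0.60.

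**Figure D5:**
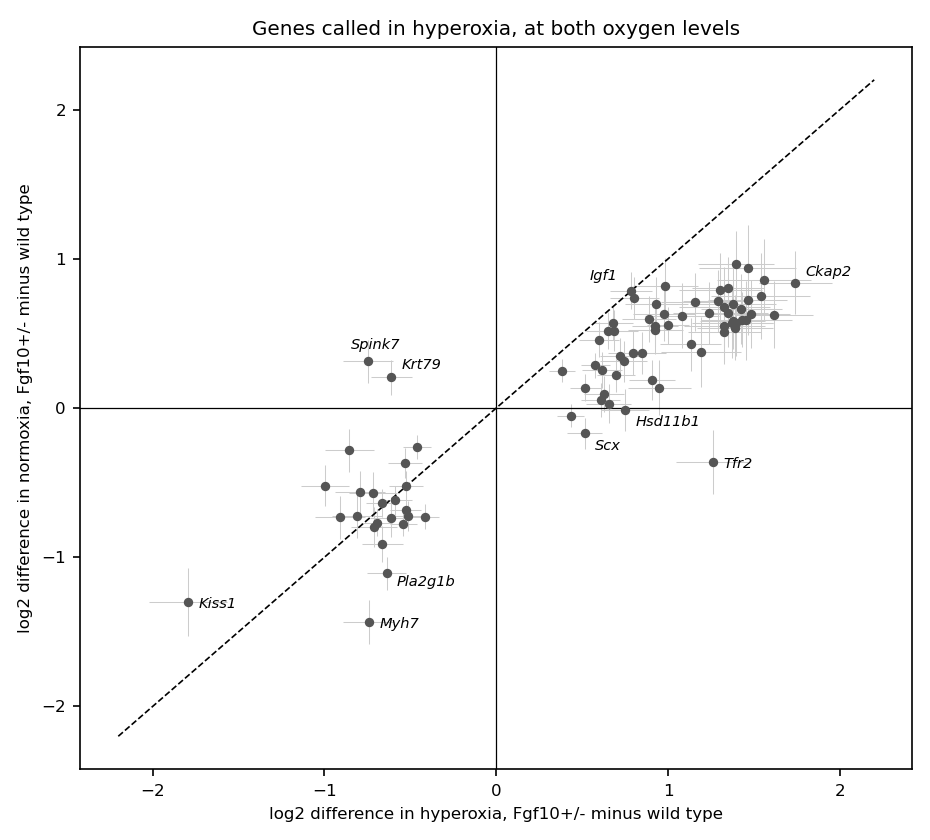
Each point is one of the 83 genes called in hyperoxia, with its log2 difference between Fgf10+/- and wild type in hyperoxia on the horizontal axis and in normoxia on the vertical axis, whiskers of 1 SE, and a dashed line of equal values. Most points lie in the quadrants of equal sign, 55 of 59 on the higher side and 22 of 24 on the lower side. Tfr2, Spink7 and Krt79 are among the points outside those quadrants.

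The response of wild type to oxygen was set beside these values. It shares the 4 wild-type hyperoxia arrays with the genotype comparison, so that a high or low value there moves both, and the counts are a description only. Of all genes tested, 10.3% rose and 8.75% fell with oxygen in wild type. Of the 59 genes higher in Fgf10+/-, 42 fell and 8 rose with oxygen in wild type, and of the 24 lower genes 8 rose and 2 fell. Ckap2 fell by 2.40 in wild type (adjusted p = 8.86e-06), Ccnb2 by 2.45 and Prc1 by 2.26, and in Fgf10+/- Ccnb2 fell by 1.61 and Prc1 by 1.27. Sod3 was at 0.02 in wild type and at 0.39 in Fgf10+/-.

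The genes beside Fgf10 on chromosome 13 were read by their order in RefSeq. Among 20 protein-coding neighbours on each side, 30 were measured and 2 were called in hyperoxia. Over all genes tested, 0.412% were called. The 2 neighbours are 4833420G17Rik, in the third place after Fgf10, and AF067061, in the eighteenth, both known by a clone name and named after their values were seen. 4833420G17Rik was at 10.63, 10.65, 10.59 and 10.57 in wild type and at 9.98, 9.76, 10.05 and 9.88 in Fgf10+/- (-0.70, SE 0.09, adjusted p = 0.00954). In normoxia it was at -0.77 (adjusted p = 0.00189). AF067061 was at 5.11, 4.87, 4.78 and 4.51 against 3.72, 3.70, 3.80 and 4.05 (-0.998, adjusted p = 0.0108), but its other feature was at -0.23 without a call, and the mean of the 2 at -0.62 (adjusted p = 0.418). Nnt, the nicotinamide nucleotide transhydrogenase next to Fgf10, was at 9.88, 9.58, 9.80 and 9.90 against 9.82, 10.40, 10.22 and 10.31 (0.40, adjusted p = 0.244), and at 0.67 in normoxia, where it passed (adjusted p = 0.0175). With the mean of its features, Nnt was at 0.16 in hyperoxia (adjusted p = 0.798). Paip1, in the next place, was at 7.19, 6.88, 6.80 and 6.76 against 7.71, 7.38, 7.72 and 7.65 (0.71, adjusted p = 0.0944), with no overlap, but with the mean of its features it was at 0.27 (adjusted p = 0.695). On the other side, Emb, in the third place before Fgf10, was at -0.35 in hyperoxia (adjusted p = 0.472). In normoxia Emb passed, at -0.79 (adjusted p = 0.0215).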

How the data were processed

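The authors deposited log2 intensities per feature of a one-colour Agilent array, and these were used unchanged. The RNA was isolated with miRNeasy columns, amplified and labelled with Cy3, per the labels. Background correction, normalization and scan batch are not stated in those labels. The arrays have nearly equal distributions and were read as already normalized between arrays. Features were named through the platform annotation, brought up to date with RefSeq. Low features were dropped unless 4 or more of the 16 arrays had them over the array's 25th percentile. The brightest remaining feature by mean stood for its gene, which gave 20166 genes. Features that name no gene were tested apart: of 31490, 0 passed in limma and 1509 had an unadjusted p under 0.05.

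Differences were tested with limma 3.58.1 in R 4.3.3, with 4 group means fitted to all 16 arrays (12 residual and 2.129 prior degrees of freedom), Benjamini-Hochberg adjustment over all genes and calls at an adjusted p under 0.05. On simulated data for this comparison over 20166 genes, 43 of 50 genes changed by 2 on the log2 scale, 22 of 50 changed by 1, 31 of 50 changed by -1 and 6 of 50 changed by 0.5 were called, with 1 false call. The number of arrays limits the precision. Rules for the text took the 15 largest called rises and 15 largest called falls with arrays that do not overlap (without Xist, Tsix, Y-linked genes and clone names), up to 4 members of smallest p of each list, a few always named genes and 8 genes of smallest interaction p. The comparison and the 44 gene lists were chosen with earlier results of these data known. Lists are described by counts and medians, with no set test. Alternatives were other filters, features, scalings, limma options, a covariate for sex, the replicate number as a block, only the 8 arrays, and each array left out.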

Additional observations from a re-analysis of the deposited data

Results flagged for a closer look

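In groups of 4 arrays, 1 array stood apart from the other 3 by a gap above Dixon's 95% critical value for 8 of the 194 pairs of a gene named in the text and a hyperoxia group. Chance alone flags about 1 in 20 independent groups. The named genes were partly chosen by their values and were read on the same arrays, so 8 of 194 cannot be judged against that rate. Among Fgf10+/- arrays, Aqp5 was low in replicate 2 (12.32, others 12.80 to 12.87), Birc5 was low in replicate 1 (10.01, others 10.66 to 10.79), and Sftpb was high in replicate 4 (14.81, others 14.31 to 14.39). Among wild-type arrays, Top2a was low in replicate 3 (4.97, others 6.18 to 6.38). Lamp3 (13.06, others 13.38 to 13.40) and Tfcp2l1 (8.53, others 8.85 to 8.87) were low in wild-type replicate 4. In wild-type replicate 2, Tfr2 was high (5.16, others 4.201 to 4.33) and Wt1 was low (4.11, others 5.23 to 5.40).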

How the results depend on the processing

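The count of 83 calls became 126 with a filter at the 50th percentile, 223 with limma's trend and robust options, 40 with a covariate for sex and 0 in the fit to the 8 hyperoxia arrays alone, which has fewer samples. It ran from 13 to 80 when 1 hyperoxia array was left out, and it was 75 without wild-type normoxia replicate 4, an alternative chosen after seeing the data because that array was high in skeletal muscle markers. The interaction count ran from 0 to 1 without single arrays. With the replicate number as a block, 37 genes were called, 27 higher and 10 lower. The labels do not say what the number marks, so the numbers were not taken as pairs. Between the 2 hyperoxia groups, same-number correlations of the arrays' deviations over all tested genes were 0.004, -0.029, 0.022 and 0.057. Such values do not speak for small sets of genes, and the neutrophil list was highest in replicate 1 of all 4 groups. Whether arrays of the same number share a factor was not tested. Under no filter, the mean of features, both scalings and array weights the count stayed within 1.5 times of 83, but with the mean of features 13 of the 54 called genes named in the text were no longer called. Of the genes named, Fgf7 alone turned sign, ranging from -0.2049 to 0.006 when 1 array was left out, with the turned value without Fgf10+/- replicate 2. Of 836 list medians over the alternatives, 13 moved by more than the spread between arrays. Sftpc, at the top of the scale, and genes near background, such as Spink7 and AF067061, limit what can be read from their differences.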

Other observations

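The mean level of 14 neutrophil genes was highest in replicate 1 of each of the 4 groups, at 8.45 and 8.73 in wild type and Fgf10+/- in normoxia and at 8.48 and 8.69 in hyperoxia. No neutrophil gene passed between the genotypes in hyperoxia (median 0.06). The labels do not say what the replicate number marks.

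The mean level of 13 skeletal muscle markers was 8.27 in wild-type normoxia replicate 4 and at most 5.48 in the other 15 arrays. This array enters the genotype comparison in hyperoxia only through the pooled spread.

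Of 18 genes of the unfolded protein response, 12 lay below 0 in hyperoxia (median -0.04) and 14 above 0 in normoxia (median 0.31), and of 20 heat shock and chaperone genes 11 lay below 0 in hyperoxia (median -0.02) and 19 above 0 in normoxia (median 0.35). In normoxia the heat shock list means were 10.40, 10.37, 10.41 and 11.05 in wild type and 10.46, 10.97, 11.43 and 11.13 in Fgf10+/-. Those of the unfolded protein response were 9.78, 9.73, 9.79 and 10.22 against 9.86, 10.19, 10.49 and 10.20. In both lists the groups overlapped, and wild-type replicate 4 was near the level of Fgf10+/- replicates 2 to 4. Fgf10+/- replicate 1 was near the other wild-type arrays. No gene of either list passed in either comparison, and the interaction called none.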
